A study of Mus musculus with 4 samples.

Results

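The genes described here are those whose symbols on the array begin with Mrpl or Mrps and a digit, which encode proteins of the large (Mrpl) and small (Mrps) subunits of the mitochondrial ribosome. Mrpl39, which neighbours the miR-155 host gene on chromosome 16, was left out. The array held 104 probes for 75 such genes, all 75 were tested, and they were 75 of the 18905 named genes tested. Each gene was represented by its probe with the highest mean over the arrays. The genes were chosen by symbol and not by any measured value.

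The study compared mouse CD4+ T cells of 2 genotypes, miR-155-/- (knockout) and miR-155+/+ (wild type), with 2 one-colour Agilent arrays each. Cells of both genotypes were cultured in RPMI with FBS under antibodies to CD3e and CD28 together with TGFb and IL-6, which direct T helper 17 (Th17) differentiation. They were then sorted as CD4+ cells positive for the red fluorescent IL-17F reporter, so both genotypes carry that reporter and passed the same gate. The design text calls the replicates biological, but no animal or culture is named for any array. The p-values therefore reflect the spread among these 4 samples, which may be partly technical.

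The mitochondrial ribosome translates the few messenger RNAs encoded by the mitochondrial genome, whose products are core subunits of the respiratory chain and ATP synthase. All of its proteins are encoded in the nucleus, made in the cytosol and imported. Some have a counterpart in the bacterial ribosome and others are specific to mitochondria, and T cells enlarge this machinery when they are activated. The microRNA that the knockout lacks is printed below because it defines the comparison. It is the mature mmu-miR-155-5p of RefSeq (GRCm38.p6, chr16:84714143-84714165, plus strand), with the seed, bases 2 to 8, in capitals.
mmu-miR-155-5p: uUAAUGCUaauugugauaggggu

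Values below are log2 processed signals relative to each array's 75th percentile, and differences are knockout minus wild type on that log2 scale. The share of spots well above background ranged from 63.5% to 69.8% per array, and 0 were saturated. Knockout array 1 was uneven. The multiplicative surface fitted to it, a smooth estimate of uneven brightness, had an SD of 0.157, against 0.0498 to 0.0557 elsewhere. Among its spots well above background, the processed signal matched division by that surface for 0.801%, against 100% on the other 3 arrays. A spot where the surface is near 1 matches whether or not it was divided. The arrays of each genotype filled a row of their own on 1 slide, so genotype cannot be told apart from slide row.

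The labelled cell type was checked against its markers. All 8 CD4 T cell markers were well above background on all 4 arrays. All 5 Th17 markers were also well above background on all 4 arrays, and all 5 were lower in the knockout at an unadjusted limma p under 0.05, with a median of -2.40 and -2.01 for Il17f, the gene of the sorting reporter. Among markers of other cells, 7 of 9 for CD8 T, NK and gamma-delta T cells, 5 of 7 for B cells and 7 of 7 for macrophages and dendritic cells were well above background on all 4 arrays. So were 3 of 7 for neutrophils, mast cells and erythroid cells, while Ncr1, Ngp and Cpa3 were not above background on any. On the scaled values, 3 of 7 tested genes of the CD8, NK and gamma-delta list were higher in the knockout and 4 lower, with a median of -0.08. Cd8a, Fcer1g and Eomes were higher by 1.30, 0.94 and 1.05 at an unadjusted limma p under 0.05, while Klrd1 was at -0.47 and Cd8b1 at -0.13. Of the other lists, the B cell genes Cd79b, Ebf1 and Cd22 passed that p with 1.16, -0.97 and -0.60, and Flt3 of the macrophage and dendritic cell list with 0.60. That last list had 6 of 7 genes higher and a median of 0.27. Signals summed over a list, each divided by the array's 75th percentile, were 17.2 and 20.7 in wild type and 13.5 and 16.8 in the knockout for the CD8, NK and gamma-delta list. They were 4.02 and 3.02 against 4.46 and 4.88 for B cells and 14.9 and 15.0 against 15.7 and 15.4 for macrophages and dendritic cells. For neutrophils, mast cells and erythroid cells they were 1.30 and 1.37 against 1.35 and 1.16, and for the CD4 T cell list 604 and 649 against 594 and 598. The part of other cells in the values below was not tested, and in bulk RNA fewer cells of a type and less RNA per cell cannot be told apart.

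The mitochondrial ribosomal protein genes were expressed in both genotypes and differed little between them. All 75 were well above background on all 4 arrays, against 93.6% of all genes tested. Their median difference was -0.06, with quartiles of -0.15 and 0.03, beside a median of 0.02 and quartiles of -0.16 and 0.22 over all genes tested. Lower values in the knockout were found for 50 members (66.7%), against 47.7% of all genes, and higher values for 25. The difference was within 0.2 either way for 59 members (78.7%), against 52.8% of all genes. Shares over all genes, here and below, were not matched to the members for signal. The median standard error over all genes was 0.16, against 0.13 over the members.

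No member passed limma's Benjamini-Hochberg adjusted p of 0.05, and the smallest adjusted p among them was 0.330. Over all 18905 genes the count was also 0, a background of 0%, where the smallest adjusted p was 0.250. By unadjusted p under 0.05, 0 members were higher, where the background was 7.27% (1374 genes). Mrpl38 alone was lower, 1 member of 75, where the background was 4.14% (783 genes). Both knockout arrays lay above both wild-type arrays for 4 members (5.33%), against 25.4% of all genes. Both lay below for 28 members (37.3%), against 22.5% of all genes, and the genotypes overlapped for the other 43.

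The fit also bounds how large a difference could be. The 95% interval of the difference lay within 2-fold either way for 74 of 75 members (98.7%), against 77.3% of all genes, and the exception was Mrps17. The count was 72 to 75 in the 13 alternatives that kept all 75 members. The intervals do not show equal expression: the median standard error was 0.13, so differences of the size of the median itself could not be resolved with 2 arrays per genotype. An exact permutation test of 1 gene with 2 arrays against 2 cannot go below a two-sided p of 0.333.

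**Figure D1:**
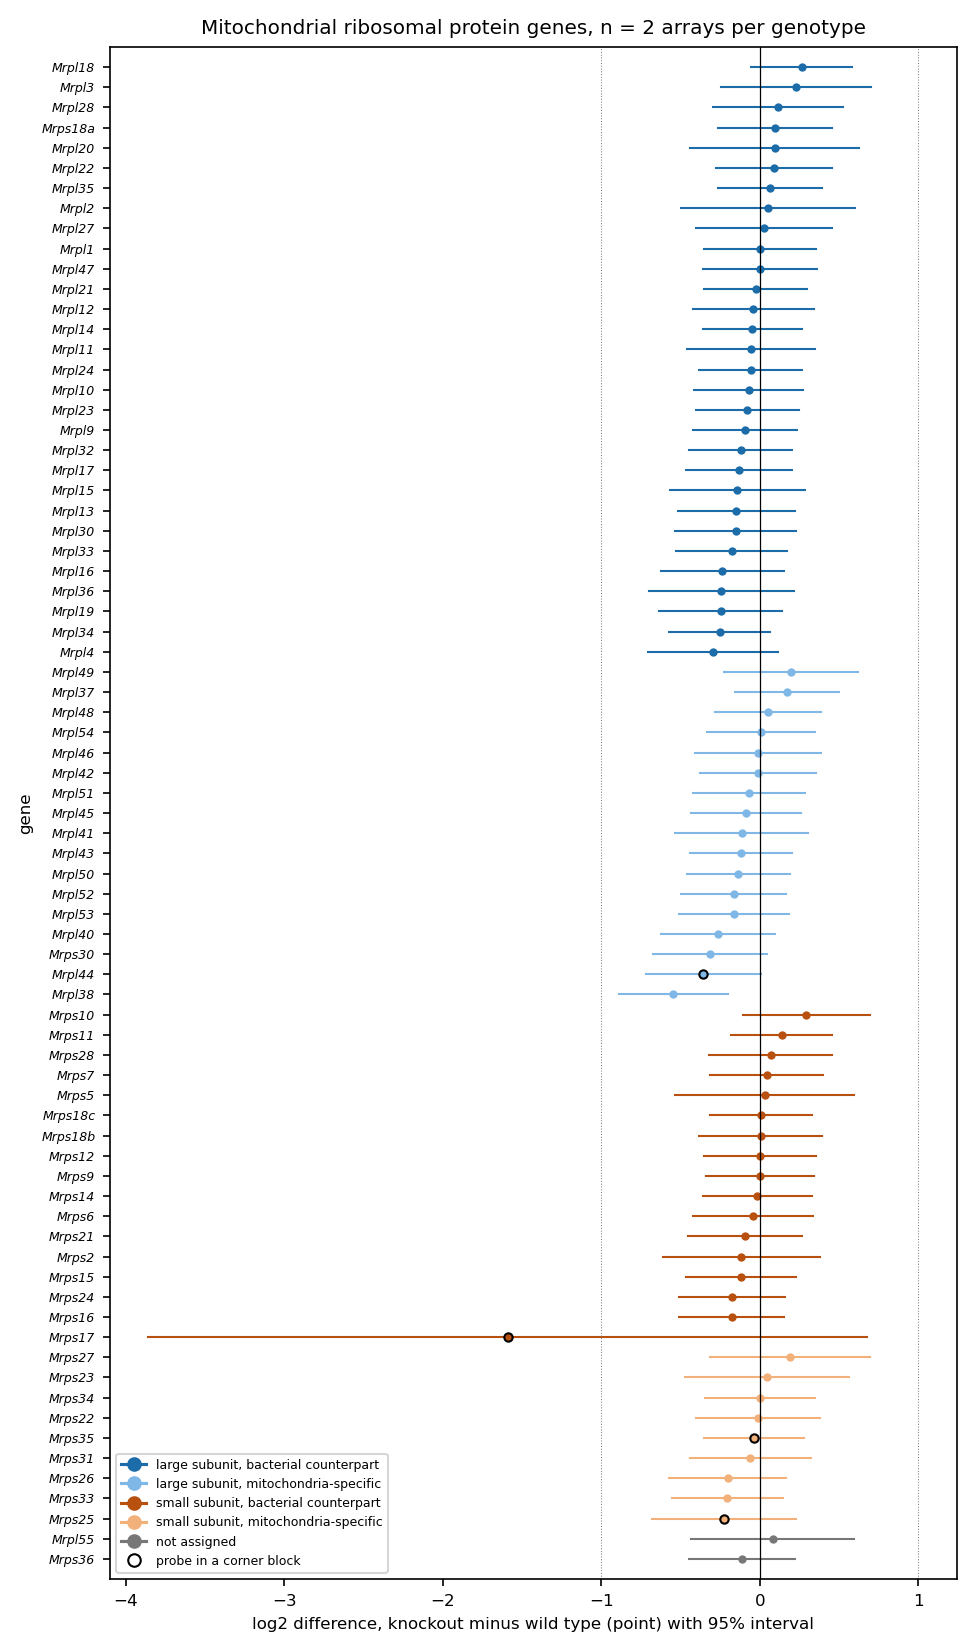
The log2 difference (knockout minus wild type, x axis) of each of the 75 genes with its 95% interval, coloured by subunit and by whether the protein has a bacterial counterpart. Dotted lines mark 2-fold, ringed points mark probes in the corner blocks, and the interval of Mrps17 alone extends past 2-fold.

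The spread between replicate arrays was set beside the genotype difference. The median absolute difference over the members was 0.10 between the wild-type arrays, 0.13 between the knockout arrays and 0.10 between the genotypes. The replicate values compare single arrays, whereas the genotype value compares means of 2 arrays, which vary less. Their sizes are therefore not directly comparable. Wild-type array 2 held the highest value for 37 members and knockout array 2 the lowest for 42. Knockout array 1, in contrast, held the highest value for 21 members and the lowest for 15. The members' median shift from each gene's mean over the arrays was -0.002 and 0.06 on the wild-type arrays and 0.009 and -0.08 on the knockout arrays. The arrays with the highest and the lowest shift are thus of different genotypes, but knockout array 1 lay between the wild-type arrays. All genes tested also shifted by array, by -0.03 and 0.03 in wild type and 0.06 and -0.03 in the knockout.

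The members were next divided by where the protein sits. In the large subunit, 33 of 47 genes (70.2%) were lower and 14 higher, with a median of -0.07, where 47.7% of all genes were lower. Both knockout arrays lay below both wild-type arrays for 20 (42.6%), against 22.5% of all genes. Of 26 small-subunit genes, 16 (61.5%) were lower and 10 higher, with a median of -0.01. Both knockout arrays lay below both wild-type arrays for 7 of them (26.9%), near the share of all genes. Whether the subunits differ was not tested.

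Among the large-subunit genes with a bacterial counterpart, 20 of 30 were lower and 10 higher, with a median of -0.06 and 0 at an unadjusted p under 0.05 in either direction. Mrpl34 was at 3.92 and 3.84 in wild type and 3.63 and 3.62 in the knockout. Both knockout arrays were lower, and the difference was -0.25 ± 0.12 (SE, n = 2 per genotype), with a limma adjusted p of 0.482. Mrpl18, which in bacteria binds 5S ribosomal RNA, was at 4.23 and 4.24 in wild type and 4.53 and 4.46 in the knockout. Both knockout arrays were higher here, by 0.26 ± 0.12 (SE), which is 1.20-fold, with a limma adjusted p of 0.474. Mrpl3 was at 3.28 and 3.43 in wild type and 3.76 and 3.41 in the knockout, so the genotypes overlapped, with a difference of 0.23 ± 0.17 (SE). Mrpl28 and Mrpl22 differed by 0.12 and 0.09, and their genotypes also overlapped.

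Mrpl4, Mrpl19 and Mrpl16 were lower on both knockout arrays, by -0.29, -0.25 and -0.24. A second Mrpl4 probe differed by -0.97, being at 3.51 and 3.50 in wild type and 1.86 and 3.21 in the knockout, so knockout array 1 alone made most of it. With knockout array 1 divided by its surface, the second probe differed by -0.42. The stalk proteins Mrpl10, Mrpl11 and Mrpl12, which recruit translation factors to the ribosome, differed by -0.07, -0.06 and -0.04, and each had overlapping genotypes.

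Large-subunit genes specific to mitochondria were lower in 13 of 17 cases, with a median of -0.12. Mrpl38 (probe at chr11:115993268-115993327 on mm9) was at 1.37 and 1.30 in wild type and 0.72 and 0.86 in the knockout. The genotypes did not overlap, the signal was 1.46-fold lower in the knockout, and the difference was -0.55 ± 0.13 (SE), with an unadjusted limma p of 0.0110 and an adjusted p of 0.330. The adjusted p lay between 0.146 and 0.708 in the 14 alternatives. Without wild-type array 1 the unadjusted p of Mrpl38 was 0.0643.

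Mrpl44, which also has an RNase III-like fold, was at 2.47 and 2.55 in wild type and 2.06 and 2.24 in the knockout, a difference of -0.36 ± 0.13 (SE). Both knockout arrays were lower, but the probe lay in a corner block at the array's edge, where knockout array 1 was dim, and the limma adjusted p was 0.440. Mrps30 is named for the small subunit although its protein sits in the large one, and it was at 3.80 and 3.64 in wild type and 3.35 and 3.46 in the knockout. Both knockout arrays were lower, by -0.32 ± 0.13 (SE), with a limma adjusted p of 0.461. Mrpl37 was higher on both knockout arrays by 0.17, and Mrpl49 was higher by 0.19 with overlapping genotypes.

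**Figure D2:**
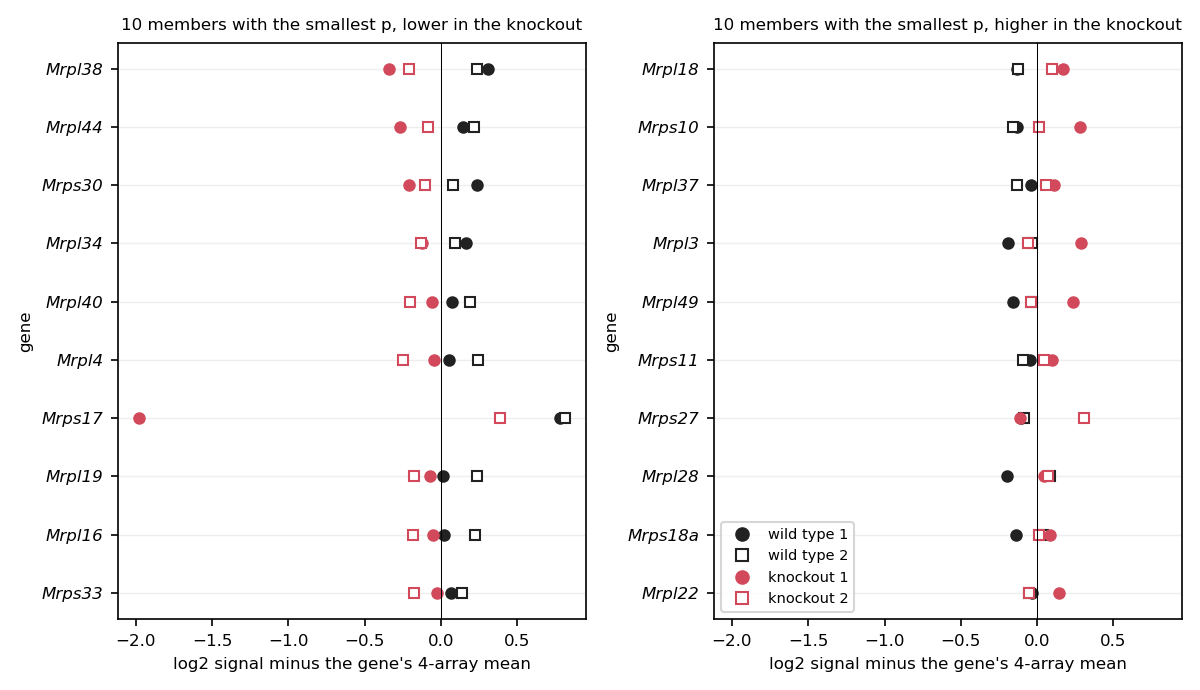
Log2 signal minus the gene's mean over the 4 arrays (x axis) for the 10 members of each direction with the smallest p, wild type in black and knockout in red. For Mrpl38 both knockout points lie left of both wild-type points, and for Mrps17 knockout array 1 stands far from the other 3 arrays.

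Small-subunit genes with a bacterial counterpart were split evenly. Of 17, 8 were higher and 9 lower, and the median was -9e-05. Mrps10 was at 2.57 and 2.54 in wild type and 2.98 and 2.71 in the knockout, so both knockout arrays were higher. Its difference was 0.29 ± 0.15 (SE), or 1.23-fold, with a limma adjusted p of 0.501. Mrps11 was higher on both knockout arrays by 0.14. Its neighbour on chromosome 7, Mrpl46, differed by -0.01.

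Mrps17 had the largest difference among the members, and it rested on 1 array. It was at 3.21 and 3.24 in wild type and 0.45 and 2.82 in the knockout, which is -1.59 ± 0.83 (SE) apart, and limma's adjusted p was 0.510. Both knockout arrays were lower than both wild-type arrays, with knockout array 1 far below the rest. Without that array the difference was -0.41, and with the array divided by its surface it was -0.85. A second Mrps17 probe was at 2.75 and 2.63 in wild type and -1.42 and 2.31 in the knockout. Both probes lay in the corner blocks, which were set from these data as areas where knockout array 1 was dim.

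The paralogs Mrps18a, Mrps18b and Mrps18c, which share an ancestry with 1 bacterial protein, differed by 0.10, 0.004 and 0.009 with overlapping genotypes, and by -0.04, -0.09 and -0.04 once knockout array 1 was divided by its surface. Mrps18a sits in the large subunit and the other two in the small one. Small-subunit genes specific to mitochondria were lower in 7 of 9 cases, with a median of -0.04. Mrps33 and Mrps26 were lower on both knockout arrays, by -0.21 and -0.20, while Mrps26 was higher by 0.05 once knockout array 1 was divided by its surface. Mrps27, which belongs to a family of RNA-binding pentatricopeptide repeat proteins, differed by 0.19 with overlapping genotypes.

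Mrpl55 and Mrps36 were placed in neither subunit list. Mrps36, despite its name, is a component of the 2-oxoglutarate dehydrogenase complex, and it was lower on both knockout arrays by -0.11. Mrpl55 differed by 0.08 with overlapping genotypes.

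Only Mrpl40 and Mrps6 had their probes on chromosome 16, which carries the deleted locus. The Mrps6 probe lay 7.39 Mb from that of Mrpl39 and the Mrpl40 probe 65.8 Mb from it, by the mm9 positions in the files. Mrps6 was at 4.92 and 4.70 in wild type and 4.78 and 4.75 in the knockout. Its genotypes overlapped, with a difference of -0.04 ± 0.14 (SE). Mrpl40 was at 3.39 and 3.51 in wild type and 3.26 and 3.11 in the knockout, with both knockout arrays lower by -0.26 ± 0.13 (SE). A second Mrpl40 probe differed by -0.39, and by 0.07 once knockout array 1 was divided by its surface, while the first then differed by -0.32.

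Several probes of a gene often differed in sign. Of the 24 members with several tested probes, 12 had probes of opposite sign: Mrpl10, Mrpl22, Mrpl27, Mrpl41, Mrpl47, Mrpl49, Mrps2, Mrps7, Mrps14, Mrps18b, Mrps23 and Mrps26. For Mrpl49, the second probe lay in a corner block and was at 2.08 and 2.04 in wild type and -1.91 and 1.93 in the knockout, a difference of -2.05 against 0.19 for the other. The Mrps2 probes differed by -0.12 and 0.55 and the Mrps26 probes by -0.20 and 0.22, and none of these lay in a corner block. The second Mrpl30 probe is placed on chromosome 11 in the files, whereas the first is on chromosome 1, and they differed by -0.09 and -0.15.

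**Figure D3:**
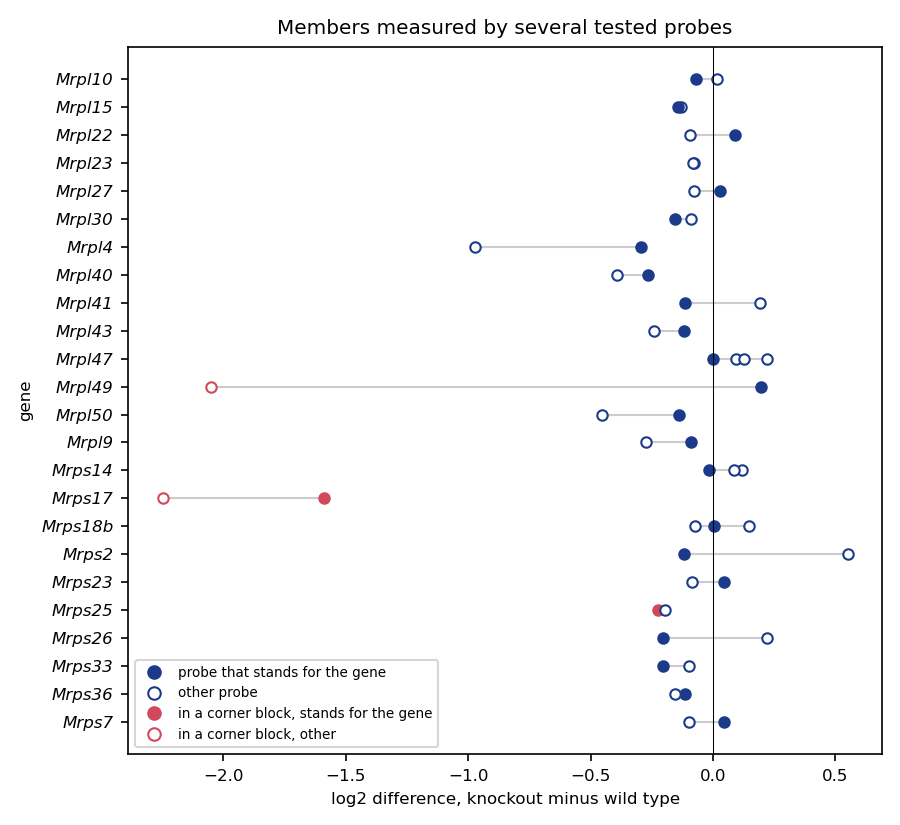
The log2 difference (x axis) of every tested probe of the 24 members with several, filled where the probe stands for the gene and red where it lies in a corner block. The 3 points furthest to the left, of Mrps17 and Mrpl49, are corner-block probes.

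Genes of the cytosolic ribosome, which makes the imported proteins, and of the respiratory chain itself were set beside the members. Of 85 cytosolic ribosomal protein genes, 59 were lower and 26 higher, with a median of -0.03, and 1 in each direction had an unadjusted p under 0.05. Of 83 oxidative phosphorylation subunit genes, 43 were lower and 40 higher, with a median of -0.02, and again 1 in each direction. Both knockout arrays lay below both wild-type arrays for 27 (31.8%) and 21 (25.3%) of them, against 37.3% of the mitochondrial ribosomal protein genes and 22.5% of all genes. Both lay above for 8.24% and 10.8%, against 5.33% of the members and 25.4% of all genes. The difference was within 0.2 either way for 90.6% and 77.1%, against 78.7% of the members. The 95% interval lay within 2-fold for 97.6% and 95.2%, against 98.7%. Small differences were therefore not particular to the members. No test of the differences between these sets was made.

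**Figure D4:**
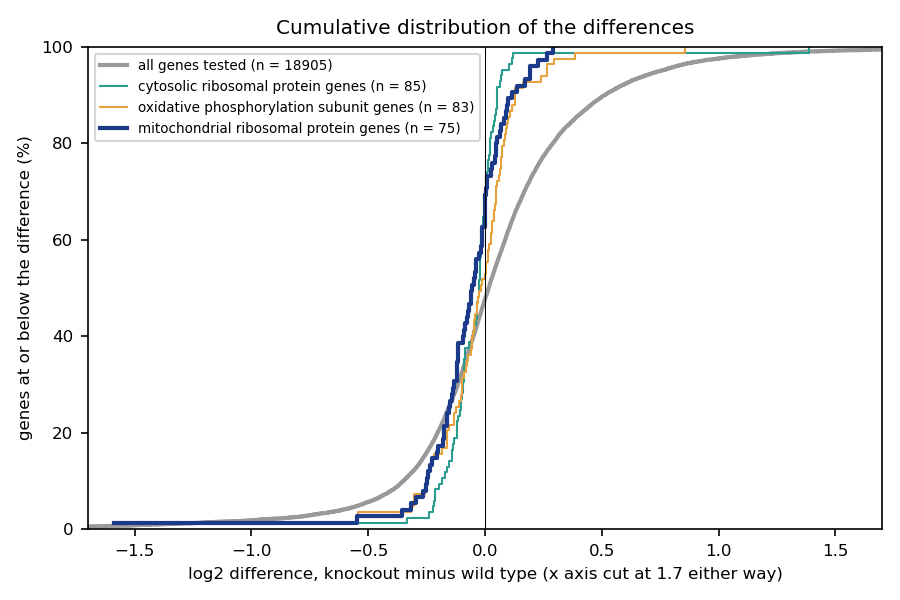
Cumulative share of genes (y axis, percent) at or below each log2 difference (x axis), for the members, both compared sets and all genes tested. The curves of the 75, 85 and 83 genes are steeper than that of the 18905 genes, and the medians are -0.06, -0.03, -0.02 and 0.02.

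The other lists covered the rest of the mitochondrial translation pathway and mitochondrial transcription and biogenesis. Among their 80 tested genes, 4 (5%) had an unadjusted limma p under 0.05 and a lower value in the knockout, near the background of 4.14%. By list, 3 were among the 15 transcription and biogenesis genes and 1 among the 19 synthetase genes. That placement was not tested, and the lists were chosen with earlier results of these data known. None of the 80 passed that p with a higher value. Of 7 mitoribosome proteins under other names, 5 were lower and 2 higher, with a median of -0.06 and 0 past an unadjusted p of 0.05. Ptcd3, a small-subunit protein, differed by -0.20, Gadd45gip1, of the large subunit, by -0.14, and Aurkaip1 by 0.08. Of 24 tested genes for assembly and ribosomal RNA modification, 11 were higher and 13 lower, again with 0 past it. Rbfa, a small-subunit assembly factor, was higher by 0.29 and the RNA methyltransferase gene Ftsj2 by 0.21, while the methyltransferase gene Tfb1m was at -0.25. Noa1, a GTPase listed in the files as 2610024G14Rik, was at -0.37.

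Of 15 translation factor genes, 11 were lower and 4 higher, with a median of -0.04 and 0 past an unadjusted p of 0.05. Mtfmt, which formylates the initiator tRNA, differed by -0.80 on a corner-block probe, at 3.72 and 3.54 in wild type and 2.29 and 3.36 in the knockout. Mrrf, the ribosome recycling factor, was at -0.34, and Mtif2 and Oxa1l, an initiation factor and a membrane insertase, were each at 0.07. Of 19 mitochondrial aminoacyl-tRNA synthetase genes, 10 were lower and 9 higher, and Wars2 was lower by -0.78 at an unadjusted limma p of 0.0271. Its adjusted p was 0.391. Iars2 was at -0.43, Cars2 at 0.27 and Fars2 at 0.25.

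Of 15 genes for mitochondrial transcription and biogenesis, 11 were lower and 4 higher, and 3 of the lower ones had an unadjusted p under 0.05. These were Ppargc1b and Pprc1, which encode PGC-1 family coactivators, and Myc, which drives biosynthesis in activated T cells. Myc was at 3.94 and 4.23 in wild type and 3.65 and 3.32 in the knockout, which is -0.60 ± 0.19 (SE) apart, and limma's adjusted p was 0.403. Ppargc1b differed by -0.61 and Pprc1 by -0.41, with limma adjusted p of 0.371 and 0.402. The Ppargc1b probe was dim, at -3.48 and -3.13 in wild type and -3.86 and -3.98 in the knockout. Gabpa, the DNA-binding subunit of an ETS factor that binds mitochondrial gene promoters, was at 0.82 and 0.85 in wild type and 0.55 and 0.48 in the knockout. Both knockout arrays were lower, by -0.32 ± 0.12 (SE), with a limma adjusted p of 0.439. Distance from the deleted locus was measured for the members only, and not for Gabpa or the other pathway genes. Nrf1, another such factor, differed by 0.03 and Polrmt, the mitochondrial RNA polymerase, by 0.02. The number of calls in these pathway lists fell or rose depending on which array was left out. Each such fit leaves 1 genotype with 1 array.

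Promoter sequence gives a further grouping of the members. RefSeq's table of promoters (GRCm38.p6, 250 bases before the start to 50 after) held 72 promoters of 66 members. Motifs were searched as letters on both strands: the NRF1 palindrome with 1 free base, CCGGAAG for ETS factors, AANATGGC for YY1, CCAAT, and TATAAA for the TATA box. The NRF1 letters were in 15.3% of the members' promoters, against 6.38% of promoters of protein-coding genes. The ETS letters were in 33.3% against 11.6%, and YY1 in 27.8% against 6.37%. CCAAT was in 40.3% against 38.2%, TATAAA in 6.94% against 12.6%, and the median GC content was 58.2% against 56.3%. A match is a description of the letters and not a binding site.

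The upstream parts of 3 promoters show what these matches look like, chosen among named members with no overlapping gene and 1 listed start. Capitals mark the NRF1 letters in Mrpl12 and the ETS letters in Mrpl3 and Mrpl22. They lie on the plus strand at chr11:120484387-120484636 (Mrpl12), chr9:105053018-105053267 (Mrpl3) and chr11:58171414-58171663 (Mrpl22) in GRCm38.p6.
Mrpl12: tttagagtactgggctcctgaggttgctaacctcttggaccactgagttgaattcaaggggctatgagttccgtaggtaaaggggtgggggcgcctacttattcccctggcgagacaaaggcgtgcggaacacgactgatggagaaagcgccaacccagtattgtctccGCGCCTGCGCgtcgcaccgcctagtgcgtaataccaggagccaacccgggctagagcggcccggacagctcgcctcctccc
Mrpl3: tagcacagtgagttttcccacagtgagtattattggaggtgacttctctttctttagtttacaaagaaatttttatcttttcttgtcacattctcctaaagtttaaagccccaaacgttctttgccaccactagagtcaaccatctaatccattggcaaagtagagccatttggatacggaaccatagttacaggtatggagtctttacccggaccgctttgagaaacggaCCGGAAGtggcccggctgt
Mrpl22: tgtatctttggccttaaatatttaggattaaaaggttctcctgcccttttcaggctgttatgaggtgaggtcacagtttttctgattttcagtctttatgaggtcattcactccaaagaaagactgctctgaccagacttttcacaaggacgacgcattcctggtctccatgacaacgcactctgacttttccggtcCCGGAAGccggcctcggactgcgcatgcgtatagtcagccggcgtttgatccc

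The members' medians were also taken with and without these letters. The median was -0.09 over the 11 members with the NRF1 letters and -0.02 over the 55 without. It was -0.02 over the 24 with the ETS letters and -0.06 over the 42 without, and no test was made. Mrpl12, Mrpl3 and Mrpl22, printed above, differed by -0.04, 0.23 and 0.09.

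The sign of the members' median held under every scaling, while its size did not. Scaling by the array median moved the median of all genes from 0.02 to -0.14 and the members' median to -0.22, with 69 of 75 lower. Quantile scaling gave -0.03, with 43 lower and 32 higher. With median scaling, unadjusted calls over all genes changed from 1374 higher and 783 lower to 727 higher and 2210 lower. With quantile scaling they were 1180 and 1091, and with normexp background correction 3035 and 1150. The members' median lay below that of all genes by -0.07 in the main setting and by -0.03 to -0.16 over the 14 alternatives. Not all of these alternatives could change that gap. Array median scaling and the series matrix values shift all genes by nearly the same amount, and the replicate block leaves the differences as they were. The gap was therefore -0.07 in each of them, and their agreement with the main setting carries no information. Of the 50 lower members, 35 were lower in all 14 alternatives, and of the 25 higher members, Mrpl18, Mrpl3, Mrpl37 and Mrps10 were higher in all 14. These counts cannot be set against each other. Array median scaling and the series matrix values lower all members by nearly the same amount, so only a higher member can change sign there. The replicate block and both changes of the filter on dim probes left the members' differences as they were. With knockout array 1 divided by its surface, Mrpl18, Mrpl3, Mrpl37 and Mrps10 were higher by 0.18, 0.09, 0.10 and 0.19. In the main setting they were higher by 0.26, 0.23, 0.17 and 0.29. The members' median with that division was -0.09, with 55 lower and 20 higher.

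**Figure D5:**
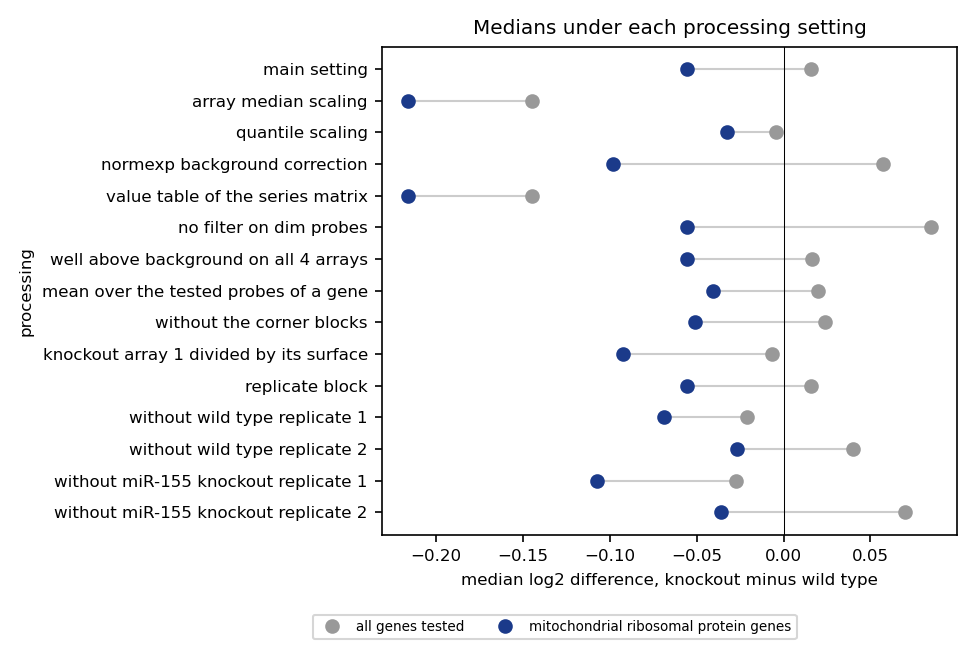
Median log2 difference (x axis) of the 75 members (blue) and of all genes tested (grey) under the main setting and 14 alternatives. Blue lies left of grey in each row, and both move together under array median scaling.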

How the data were processed

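Total RNA from 4 samples was labelled with Cy3 and hybridised to 1-colour arrays. Agilent Feature Extraction 10.5.1.1, per the submitters' processing notes, gave the scanner outputs that the authors deposited. Per the file headers, the processed signal is an intensity on a linear scale with background subtracted and spatial trends removed. On knockout array 1, however, the values had mostly not been divided by the multiplicative surface. The fitted multiplicative surface at each spot, per the file headers, is a linear ratio. A matrix of log2 values was deposited as well, made by steps not stated in the labels. It matched the log2 processed signal up to 1 constant per array within 0.001 for 99.4% to 99.5% of probes, with every column median at 5.54, and served as an alternative.

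Control and outlier spots were left out, spots of a probe averaged with pandas 2.3.3 in Python 3.11.15, and log2 signals shifted by each array's 75th percentile. Tested probes were those well above background on both arrays of 1 genotype or of both. The 16194 lincRNA and 3959 unnamed probes were kept apart. The genotype comparison used limma 3.58.1 under R 4.3.3 (2 residual and 2.16 prior degrees of freedom) and Benjamini-Hochberg adjustment over all 18905 genes. The fit was tested on simulated data. All 75 member symbols matched RefSeq's table. Probe positions are on mm9.

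The members and lists were chosen with earlier results of these data known. The rule for named members took the 10 of each direction with the smallest p, those on chromosome 16, those with tested probes of opposite sign, those not above background, the Mrps18 paralogs, Mrps30, Mrps36 and the stalk proteins. From each pathway list it took the 2 genes of each direction with the smallest p, of which some are given only as counts. Gene symbols on the array can be old.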

Additional observations from a re-analysis of the deposited data

How the results depend on the processing

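With 1 member at an unadjusted limma p under 0.05 in the main setting, array median scaling and the series matrix values each gave 12. Normexp gave 7, and the filter requiring signal on all 4 arrays, the mean over probes and division of knockout array 1 by its surface each gave 2. Calls over all 18905 genes moved too, from 1374 higher and 783 lower to 727 and 2210 with array median scaling. They were 727 and 2211 with the series matrix values, 3035 and 1150 with normexp and 1293 and 1047 with the surface. The replicate block gave 1186 and 505, and the mean over probes 1370 and 726. The filter requiring signal on all 4 arrays gave 1404 and 764 over 17704 genes. These are also the background for the pathway counts below. The member count also changed with some arrays left out, but each such fit leaves 1 genotype with 1 array. The members' median of -0.06 became -0.22 with array median scaling and with the series matrix values, which differ from the main setting by a constant per array.

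The pathway lists held 4 such genes in the main setting, 18 with array median scaling and with the series matrix values, 8 with normexp, 7 with knockout array 1 divided by its surface, 2 with the replicate block and 0 to 6 when each array was left out. Genes past an adjusted p of 0.05 numbered 0 to 52 when each array was left out, with 30 without wild-type array 1 and 52 without knockout array 2. The cause was not tested.

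Same-numbered arrays share only a number: the correlation of their deviations across genes was -0.0008. With the replicate block, 1 member, Mrpl38, had an unadjusted limma p under 0.05. The limits are the number of arrays, the unevenness of knockout array 1 and slide row.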
